A study of Mus musculus with 9 samples.

Results

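Solute carriers are membrane proteins that move nutrients, ions, vitamins and metabolites across the plasma membrane and across the membranes of mitochondria, lysosomes, the Golgi apparatus and secretory vesicles. The members described here are the genes whose symbol is Slc followed by a number and the letter a, b, c or o, with at least 1 probe well above background on 3 or more of 9 arrays. Of 356 such symbols with a probe, 216 met this condition and 140 did not, most of them above background on no array. Of the 216 members, 177 were above background on all 9 arrays. Among the 216, 5 carry a carrier's symbol without being carriers: the exchanger-binding scaffolds Slc9a3r1 and Slc9a3r2, Slc4a1ap, Slc7a6os and the pseudogene Slc2a4rg-ps.

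The arrays measured RNA of 3 populations of CD4+ T cells of BALB/c mice, taken from spleen and lymph node. The naive population was CD45RB high, CD45RB being a CD45 isoform whose level drops after antigen encounter, and the Th1 and Th17 populations were CD45RB low. Of the cytokines captured at the cell surface, Th1 cells were positive for interferon gamma alone and Th17 cells for IL-17A alone. Cells of all 3 populations, the naive ones included, had received PMA (10 ng/ml) and ionomycin (500 ng/ml) for 3 h, and were sorted with a cytokine secretion assay after magnetic CD4 enrichment. Each population had 3 arrays, each labelled with Cy3 from 0.5 µg RNA. The animals and sorts behind the replicates are not given in the sources used here, so a p-value reflects no more than the spread among these arrays, part of which may be technical.

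A level below is the log2 intensity of a probe relative to the 75th percentile of its array, so levels of 1 gene can be compared between arrays but not levels of different genes. A difference is the log2 difference between group means ± SE from limma, with 3 arrays a group. A gene was called where the two-sided adjusted p (Benjamini-Hochberg over the 19071 genes tested) was under 0.05, and "rose", "fell", "higher" and "lower" in counts mean called. In RNA of sorted bulk cells, fewer cells with a transcript and less of it per cell cannot be told apart. Between 53.4% and 58.3% of probes were above background on an array. Ifng read 9.27, 9.18 and 8.92 on the Th1 arrays and Il17a 9.04, 9.16 and 9.51 on the Th17 arrays, which are the gated cytokines. All 8 T cell markers were measured, and of 6 B cell markers only Cd79a was, at -5.51 to -3.57. Of 6 CD8 and NK cell markers 3 were measured, with a summed level of 0.50 to 0.80 in naive, -0.70 to -0.15 in Th1 and -1.92 to 1.5 in Th17 cells, and Cd8a, Ncr1 and Klrb1c were above background on no array. Cd8b1 read -0.83, -0.83 and -0.56 in naive, -4.12, -4.15 and -3.87 in Th1 and -4.21, -3.86 and -4.39 in Th17 cells, and fell by 3.31 and 3.41. Eomes, above background on 1 Th17 array, was lower in Th17 than in naive and Th1 cells, and Klra1 was not called. A summed level, here and below, is the log2 of summed intensities of different probes, so the brightest probe weighs most. The part of CD8 and NK cells in the members that were higher in naive cells was not tested. Slide 1 held the 3 naive arrays with Th1 replicate 1. Slide 2 held the other Th1 arrays together with Th17 replicates 1 and 2, and slide 3 held Th17 replicate 3 by itself. Naive and Th17 cells therefore shared no slide.

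Activated T cells are known to take up more glucose and amino acids than resting ones, and to export lactate. Large neutral amino acids enter through an exchanger of Slc7a5 and Slc3a2, glutamine through Slc1a5 and the Slc38 family, and glucose through Slc2a1 and Slc2a3. The Slc25 family carries metabolites, phosphate, nucleotides and metal ions across the inner mitochondrial membrane.

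Promoter sequences from RefSeq (build GRCm38.p6) were matched to 160 of the 216 members. They are shown for 3 members on which the results turn. Slc13a3 had the largest difference of any member. Slc37a2 was among the 3 largest rises in Th17 cells. Slc25a1 fell in both effector populations. Each line is the 250 bases before the annotated start, 5′ to 3′ on the strand of the gene, which is the minus strand in all 3. Capitals mark an E-box (CACGTG, a site of MYC and of lysosomal gene regulators) in Slc13a3 and Slc25a1, and an AP-1 site (TGANTCA, bound by Fos and Jun proteins, which PMA is known to activate) in Slc37a2. The windows are chr2:165473198-165473447 for Slc13a3, chr9:37255739-37255988 for Slc37a2 and chr16:17928220-17928469 for Slc25a1.
Slc13a3: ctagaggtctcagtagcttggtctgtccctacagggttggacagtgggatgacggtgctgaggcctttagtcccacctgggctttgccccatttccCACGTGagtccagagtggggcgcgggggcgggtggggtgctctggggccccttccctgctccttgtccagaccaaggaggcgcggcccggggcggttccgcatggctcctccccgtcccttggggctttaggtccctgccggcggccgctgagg
Slc37a2: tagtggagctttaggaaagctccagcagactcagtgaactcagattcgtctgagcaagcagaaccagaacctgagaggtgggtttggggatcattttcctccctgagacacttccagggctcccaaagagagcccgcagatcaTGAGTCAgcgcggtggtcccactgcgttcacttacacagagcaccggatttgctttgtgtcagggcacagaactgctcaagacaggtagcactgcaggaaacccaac
Slc25a1: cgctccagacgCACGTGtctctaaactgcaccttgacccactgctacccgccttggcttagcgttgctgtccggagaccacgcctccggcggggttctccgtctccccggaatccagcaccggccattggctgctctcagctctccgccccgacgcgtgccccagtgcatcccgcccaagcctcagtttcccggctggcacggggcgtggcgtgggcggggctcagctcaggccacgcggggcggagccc
The capitals begin 154 bases before the start in Slc13a3 and 239 in Slc25a1. Searched on both strands of these windows, the E-box letters lay in 28 of the 160 member promoters (17.5%) and in 6.86% of the promoters of 27025 genes. The AP-1 letters lay in 11 (6.88%) against 7.82%. The 27025 genes were not limited to genes above background on these arrays, as the members were. Among members higher in Th1 than in naive cells 6 of 40 promoters held the AP-1 letters, and among those lower 1 of 53. For Th17 against naive cells these counts were 6 of 47 and 1 of 55. Of members not called, 4 of 67 (5.97%) held the AP-1 letters for Th1 and 4 of 58 (6.9%) for Th17 against naive cells. The E-box letters lay in 6 of 40 and 8 of 53 for Th1 against naive cells. For Th17 against naive cells they lay in 5 of 47 and 9 of 55. Among members not called their share was higher, 14 of 67 (20.9%) for Th1 and 14 of 58 (24.1%) for Th17 against naive cells. A further 3 motifs were searched. The hypoxia element (NACGTG), which includes every E-box, lay in 25.6% of member promoters and 18.4% of all, with 6 of 40 higher and 15 of 53 lower members in Th1 cells, and 7 of 47 and 17 of 55 in Th17 cells. The metal element (TGCNCNC) lay in 55.6% and 47.2%, and the amino acid element (TGATGNAAN) in 1.88% and 3.89%. A match of letters describes a sequence and says nothing about binding.

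In Th1 against naive cells 56 members rose and 70 fell, 58.3% of the 216, where 53.9% of all genes tested were called (23.5% higher and 30.4% lower). The share of members called is thus near the background. The median difference was -0.11 over members and -0.09 over all genes. Changes of at least 2-fold were called upward in 26 members (12% against 11.6% of all genes) and downward in 22 (10.2% against 9.1%). When arrays were scaled to probes above background on all arrays, the split was 64 higher and 52 lower, and the median over all genes moved from -0.09 to 0.06, so the balance of rises and falls depends on the scaling. With slide as a block 103 members were called (48 higher, 55 lower), and within slide 1, where Th1 replicate 1 stands alone and is assumed to vary like the naive arrays, 89 (41 higher, 48 lower).

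In Th17 against naive cells 65 members rose and 69 fell, 62% of members against 54.2% of all genes (24.4% higher, 29.7% lower), with a median of -0.06 against -0.09. Rises of at least 2-fold were called in 41 members (19% against 11.9%), falls in 25 (11.6% against 10.4%). This comparison shares the naive arrays with the one before. With slide as a block 78 members were called (43 higher, 35 lower), and the naive and Th17 arrays can be linked across slides only through the Th1 arrays.

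Between Th17 and Th1 cells 31 members were higher in Th17 and 11 lower, 19.4% of members against 15.8% of all genes (8.28% higher, 7.53% lower). At 2-fold or more 12 were higher (5.56% against 3.08%) and 3 lower (1.39% against 3.32%). Within slide 2, which held both populations, 22 were called (17 higher, 5 lower), and without Th1 replicate 2 26 (19 higher, 7 lower). Without Th1 replicate 3 the members lower in Th17 cells numbered 7. The counts by substrate are in the bar chart of members called.

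**Figure D1:**
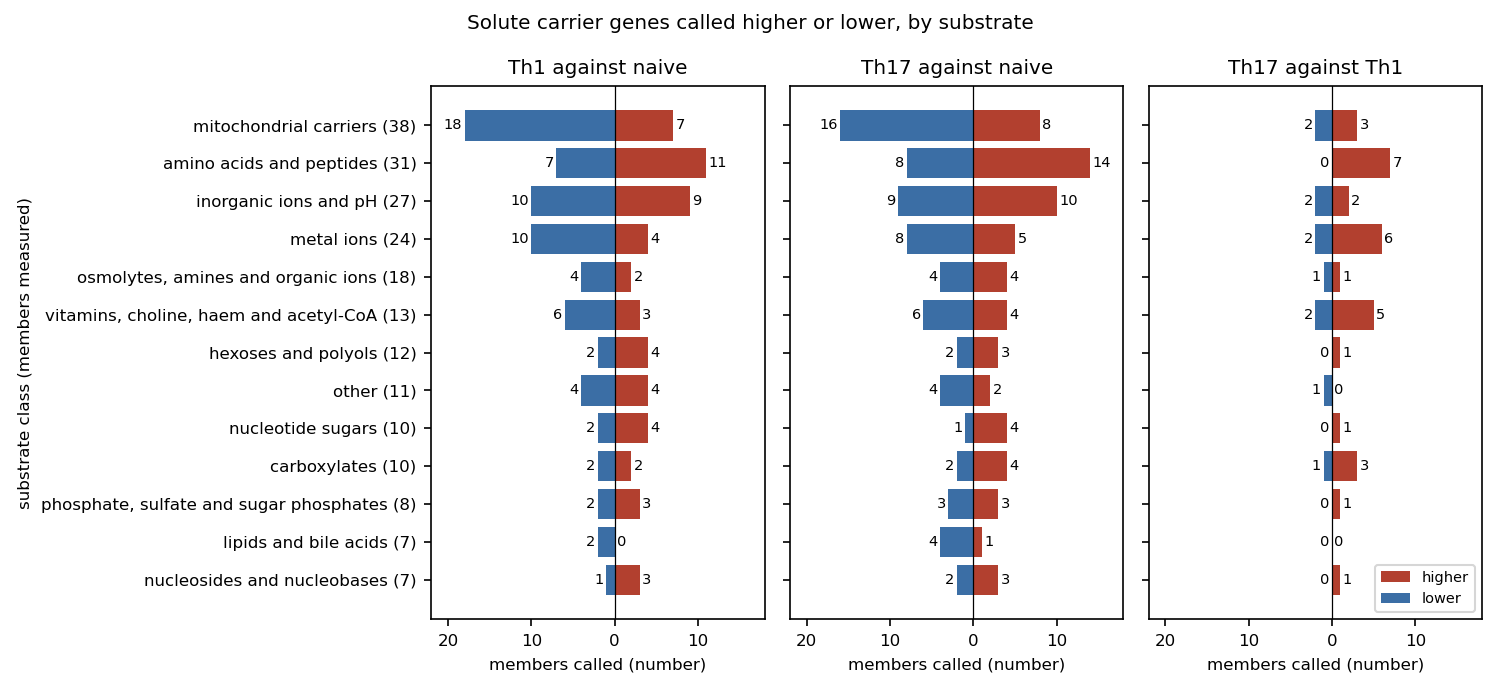
Number of members called higher (red, right) or lower (blue, left) in each substrate class, for the 3 comparisons; the number of members measured in a class stands in parentheses. Mitochondrial carriers have the most falls against naive cells (18 in Th1, 16 in Th17), and the 7 amino acid and peptide carriers called between Th17 and Th1 cells are all higher in Th17.

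Carriers of carboxylates, which include lactate, pyruvate, succinate and citrate, held the largest difference. Slc13a3 encodes a sodium-coupled carrier of succinate and other dicarboxylates known from kidney. Its level was -7.13, -7.02 and -7.67 on the naive arrays, 2.53, 2.24 and 2.57 on the Th1 arrays, and -2.66, -2.76 and -1.15 on the Th17 arrays. No group overlapped another, and no naive array was above background. The Th1 level was at least 193-fold above the naive bound (measured means 2.45 and -7.28, difference 9.72 ± 0.40, limma adjusted p = 8.56e-07). The Th17 level was at least 7.77-fold above it (mean -2.19, difference 5.09 ± 0.40, adjusted p = 2.24e-05). Slc13a3 passed the filter through effector arrays alone, so these p-values against naive cells lend its rises no support. Th17 cells lay 4.64 ± 0.40 below Th1 cells (adjusted p = 0.000184), and within slide 2 by -5.11 (adjusted p = 0.00218).

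The lactate carriers moved apart. Slc16a1, a carrier for lactate uptake and export, read between -2.12 and -1.76 on every array and was not called in any comparison. Slc16a3, the lactate exporter of glycolytic cells, read -2.41, -2.13 and -2.22 in naive, -2.35, -2.66 and -2.72 in Th1 and -1.33, -1.47 and -1.34 in Th17 cells. The Th17 arrays were above all others, by 0.88 ± 0.13 against naive (adjusted p = 0.000602) and 1.20 ± 0.13 against Th1 cells (adjusted p = 0.000544). Slc16a8, another monocarboxylate carrier, rose against naive cells in Th1 (0.54, but adjusted p = 0.0951 with slide as a block) and Th17 (1.03). Its 0.49 between Th17 and Th1 (adjusted p = 0.0486) ended in most alternatives, among them without any single naive array. Slc16a5 fell: its naive level was -2.64, -2.64 and -2.75, all 3 Th1 arrays were below background, as were 2 of 3 Th17 arrays, and naive cells were at least 5.34-fold above the Th1 bound (measured means -2.68 and -5.44, adjusted p = 0.000165). The difference in Th17 cells was -3.28 ± 0.31. The 3 immunoglobulin-like partners that carry such transporters to the membrane were measured too. Emb, one of them, fell by 0.93 in Th1, rose by 1.13 in Th17 and was 2.06 higher in Th17 than in Th1 cells (adjusted p = 0.000359). Bsg fell in Th1 cells (-0.39), and Nptn in both (-0.45 and -0.50).

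Slc16a6, a monocarboxylate family member known to export ketone bodies from liver, went opposite ways. Its level was 2.39, 2.37 and 2.12 in naive, 1.93, 1.89 and 1.58 in Th1 and 2.68, 2.61 and 2.93 in Th17 cells, with no overlap between groups. It fell by 0.49 ± 0.14 in Th1 (adjusted p = 0.0179), rose by 0.45 ± 0.14 in Th17 (adjusted p = 0.0269), and differed by 0.94 ± 0.14 between them (adjusted p = 0.00334). Both changes against naive cells ended with slide as a block (adjusted p = 0.15 and 0.143) and on leaving out single arrays. For the fall these were naive 1, naive 2 and Th1 3 (adjusted p up to 0.0597), and for the rise naive 3 and Th17 3 (up to 0.0966). The difference between Th17 and Th1 did not end in either.

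Hexose and polyol carriers, 12 measured, showed no common direction. Against naive cells 4 rose and 2 fell in Th1 (50% called), and 3 rose and 2 fell in Th17 (41.7%). Over all genes 53.9% and 54.2% were called. Slc2a1, the glucose carrier induced on T cell activation, read 2.97 to 3.69 over the 9 arrays, and its groups overlapped. Its differences were 0.07 ± 0.21 in Th1 and -0.23 ± 0.21 in Th17 against naive cells (adjusted p = 0.8 and 0.379), and the 95% intervals (-0.40 to 0.54 and -0.70 to 0.25) leave room for changes of either sign. Slc2a3, the high-affinity glucose carrier of lymphocytes and neurons, read 2.40, 3.02 and 2.88 in naive, 0.25, 0.64 and 0.45 in Th1 and 0.43, 0.39 and 0.27 in Th17 cells. All naive arrays lay above all effector arrays, and the fall was 2.32 ± 0.17 in Th1 (5-fold, adjusted p = 1.8e-05) and 2.41 ± 0.17 in Th17 cells (5.3-fold, adjusted p = 1.4e-05). Slc2a8, an intracellular hexose carrier, fell by 1.91 and 1.97.

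Slc2a6, a lysosomal hexose carrier known from macrophages, had its highest level in Th17 cells. It read -5.10, -4.82 and -4.27 in naive cells, of which 1 array was above background, -4.13, -3.53 and -3.57 in Th1 and -0.23, -0.51 and -0.24 in Th17 cells. The Th17 level was 4.41 ± 0.24 above naive (adjusted p = 3.26e-06) and 3.42 ± 0.24 above Th1 cells (adjusted p = 6.07e-05). Its rise in Th1 cells (0.99) was not called with slide as a block (0.60, adjusted p = 0.166), and a second probe, above background on 3 arrays, gave 0.55 in Th1 (adjusted p = 0.301) and 2.73 in Th17 cells (adjusted p = 0.000817). Slc5a3, which takes up the osmolyte inositol, rose by 1.26 ± 0.18 in Th1 and 0.87 ± 0.18 in Th17 cells, the latter not called with slide as a block (0.25, adjusted p = 0.492). Slc5a9, a sodium-coupled sugar carrier, rose by 0.85 and 0.42, and the second ended with slide as a block and on leaving out naive 2, naive 3, Th1 3, Th17 2 or Th17 3 (adjusted p up to 0.515).

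Glycolysis, which uses the glucose these carriers bring in, was given by 19 enzymes and regulators. In Th1 cells 2 rose and 11 fell, in Th17 cells 2 rose and 9 fell. Of all genes 23.5% rose and 30.4% fell in Th1, and 24.4% and 29.7% in Th17 cells. Hk2, the inducible hexokinase, rose by 1.68 and 1.58, while Hk1 fell by 2.02 and 1.87. Ldhb, the lactate dehydrogenase subunit that favours pyruvate, fell by 1.12 in Th1 and 3.31 in Th17 cells, and Ldha by 0.71 and 0.97.

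**Figure D2:**
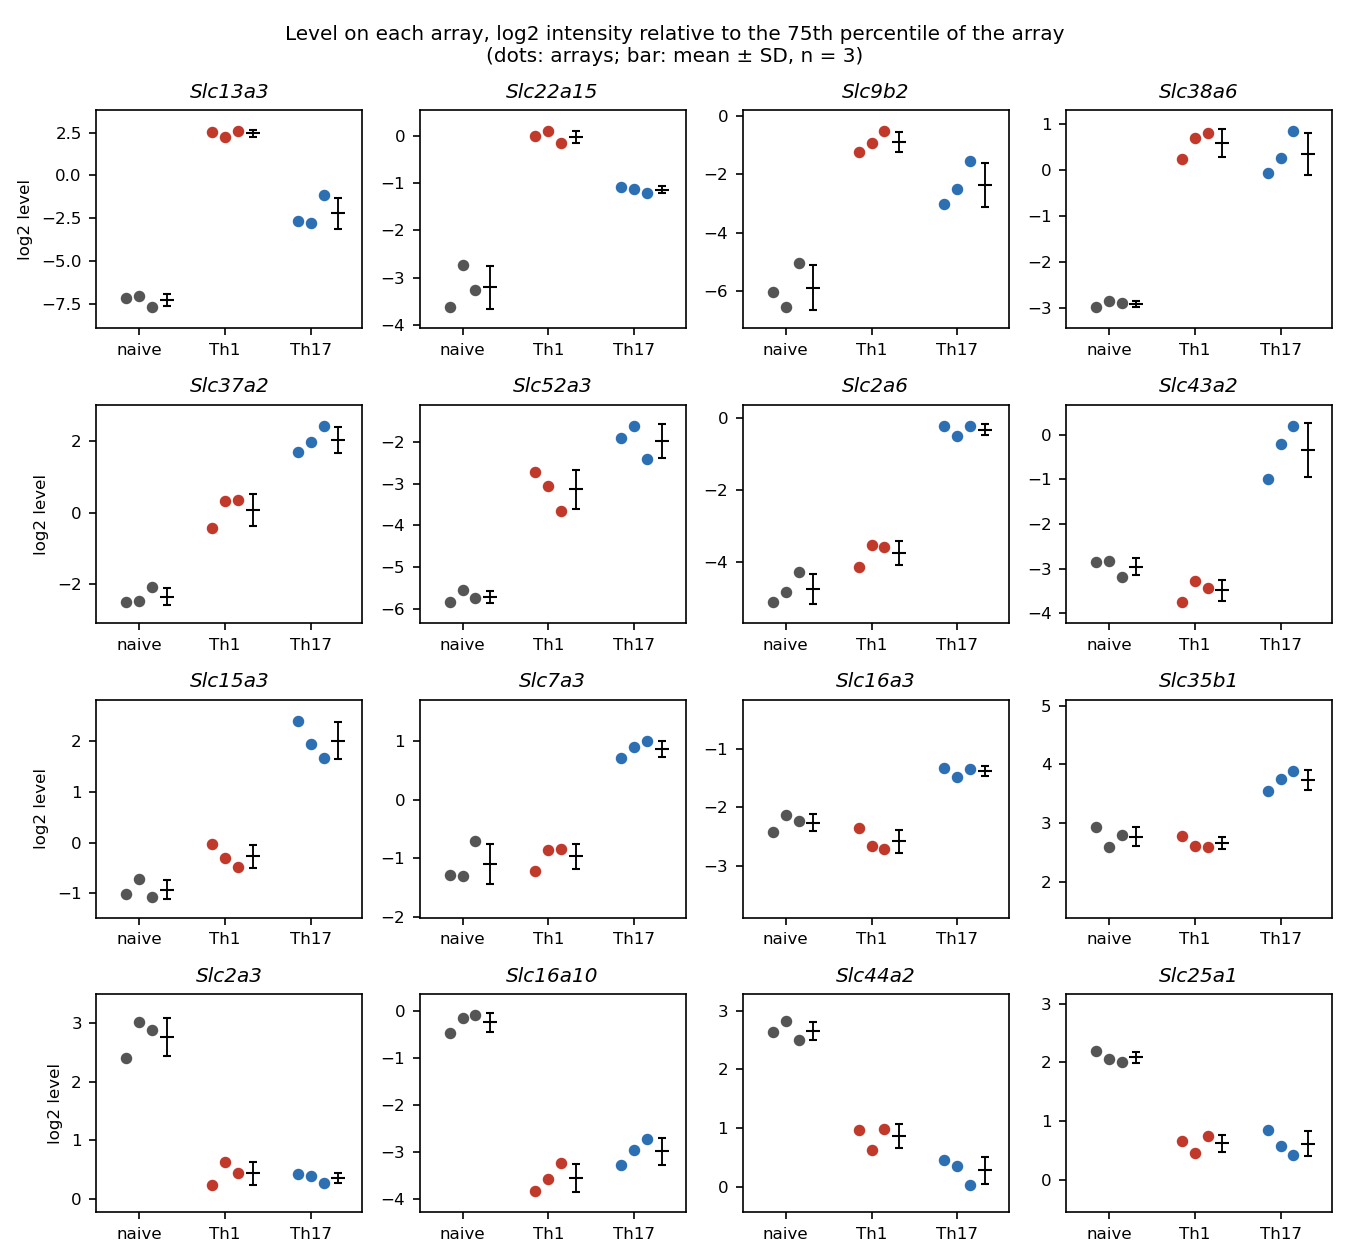
Level of 16 members on each of the 9 arrays (dots, coloured by population) with the mean ± SD of 3 arrays beside them; each panel has its own log2 axis. Slc13a3 and Slc22a15 are highest in Th1 cells, Slc37a2, Slc52a3, Slc2a6, Slc43a2, Slc15a3, Slc7a3, Slc16a3 and Slc35b1 are highest in Th17 cells, and Slc2a3, Slc16a10, Slc44a2 and Slc25a1 are highest in naive cells.

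Amino acid and peptide carriers numbered 31. In Th1 against naive cells 11 rose and 7 fell, in Th17 against naive cells 14 rose and 8 fell, and between Th17 and Th1 cells 7 were higher in Th17 and 0 lower (limma at an unadjusted p under 0.05 gave 11 and 1). The last 7 were Slc43a2, Slc15a3, Slc7a3, Slc17a6, Slc7a4, Slc38a2 and Slc1a5. Median differences were 0.20, 0.21 and 0.23, beside -0.09, -0.09 and 0.01 over all genes. Called were 58.1%, 71% and 22.6% of these carriers, beside 53.9%, 54.2% and 15.8% of all genes.

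The carriers known best from T cell activation differed by less than 2-fold. Slc7a5, the light chain for leucine and other large neutral amino acids, read 2.93, 3.03 and 2.78 in naive, 3.39, 3.11 and 2.86 in Th1 and 3.66, 3.50 and 3.62 in Th17 cells. Its difference in Th17 was 0.68 ± 0.14 (adjusted p = 0.00417) and in Th1 0.21 ± 0.14 (adjusted p = 0.256), and a second probe gave 0.01 in Th17 cells (adjusted p = 0.933). Its heavy chain Slc3a2 rose by 0.63 ± 0.13 in Th17 cells (adjusted p = 0.00402), a call that ended with slide as a block (adjusted p = 0.102). The intervals of both genes between Th17 and Th1 cells reached from 0.14 to 0.80 for Slc7a5 and 0.13 to 0.74 for Slc3a2, with neither called (adjusted p = 0.0603 and 0.0607). Slc1a5, which exchanges glutamine, read 4.03, 4.17 and 3.98 in naive, 4.64, 4.43 and 4.62 in Th1 and 4.97, 4.89 and 5.05 in Th17 cells. It rose by 0.50 ± 0.10 and 0.91 ± 0.10 without overlap between any groups. Its 0.41 between Th17 and Th1 (adjusted p = 0.0296) was not called with slide as a block (adjusted p = 0.0879), nor on leaving out Th1 2, Th1 3, Th17 1 or Th17 3 (adjusted p up to 0.108). Slc7a1, the carrier of arginine and lysine, was not called in any comparison. Slc7a11, the cystine exchanger, was above background on 1 array and did not pass the filter.

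Among the Slc38 carriers of small neutral amino acids, Slc38a1 rose by 0.61 and 0.85, while Slc38a2, the one induced by amino acid starvation, fell. Slc38a2 read 4.47, 4.68 and 4.61 in naive, 3.49, 3.44 and 3.61 in Th1 and 4.19, 3.99 and 4.11 in Th17 cells. No groups overlapped: it fell by 1.07 ± 0.10 in Th1 (adjusted p = 7.16e-05) and 0.49 ± 0.10 in Th17 cells (adjusted p = 0.00419, but 0.104 with slide as a block). The difference between Th17 and Th1 was 0.58 ± 0.10 (adjusted p = 0.00731, and 0.105 within slide 2). Slc38a6, a less studied member, rose most: it read -3.0, -2.86 and -2.91 in naive, 0.23, 0.70 and 0.81 in Th1 and -0.06, 0.26 and 0.83 in Th17 cells. All effector arrays lay above the naive ones, by 3.50 ± 0.24 (11.3-fold, adjusted p = 1.05e-05) and 3.26 ± 0.24 (9.6-fold, adjusted p = 1.39e-05), and the Th1 and Th17 arrays overlapped. Slc36a4, a proline and tryptophan carrier, rose by 1.86 and 1.73.

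In Th17 cells 3 carriers stood out from both other populations. Slc43a2, a facilitated carrier of branched-chain amino acids, read -2.85, -2.84 and -3.18 in naive, -3.75, -3.28 and -3.44 in Th1 and -1.0, -0.22 and 0.19 in Th17 cells. It was 2.61 ± 0.28 above naive (adjusted p = 0.000119) and 3.14 ± 0.28 above Th1 cells (8.84-fold, adjusted p = 0.00022). Slc15a3, which exports histidine and peptides from endolysosomes, read -1.01, -0.72 and -1.06 in naive, -0.03, -0.31 and -0.48 in Th1 and 2.41, 1.95 and 1.68 in Th17 cells. Each group lay apart from the others, and Th17 cells were 2.94 ± 0.20 above naive (adjusted p = 1.18e-05) and 2.28 ± 0.20 above Th1 cells (adjusted p = 0.000214). The smaller rise in Th1 cells, 0.66 (adjusted p = 0.0248), ended on leaving out naive 1, naive 3, Th1 1 or Th1 2 (adjusted p up to 0.0796). Slc7a3, a second arginine and lysine carrier, read -1.29, -1.30 and -0.70 in naive, -1.21, -0.85 and -0.84 in Th1 and 0.71, 0.89 and 0.99 in Th17 cells. Naive and Th1 arrays overlapped (0.13, adjusted p = 0.596), and Th17 cells lay 1.96 ± 0.19 and 1.83 ± 0.19 above them (adjusted p = 6.13e-05 and 0.000436). Slc17a6, the vesicular glutamate carrier of neurons, read low throughout, with 1 naive array above background, and rose by 2.56 ± 0.33 in Th1 and 3.77 ± 0.33 in Th17 cells. Its 1.21 between them (adjusted p = 0.0417) ended without any single Th17 array, without Th1 replicate 2 or 3 and without naive replicate 3.

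Several of these genes are known from myeloid cells, so the markers of that lineage are given beside them. Of 8 such markers 5 were measured, and their summed level was 7.48 to 7.54 on the naive, 7.66 to 7.86 on the Th1 and 7.68 to 7.87 on the Th17 arrays. Siglech, of plasmacytoid dendritic cells, read 7.33 to 7.75 over the 9 arrays and was not called. The summed level is thus nearly that of the Siglech probe alone and cannot show changes in the other markers. Cd14, of monocytes, read -3.96, -3.91 and -4.45 in naive, -3.06, -3.65 and -3.85 in Th1 and -0.30, -1.14 and -1.71 in Th17 cells (3.06 ± 0.36 above naive, adjusted p = 0.000186). Itgam rose by 1.07 in Th1 and 0.80 in Th17 cells. Lyz2, Itgax and Flt3 were above background on 2, 1 and 1 arrays and did not pass the filter, Csf1r fell in both effector populations, and Adgre1 was not called. The part of such cells in the levels of Slc2a6, Slc15a3, Slc37a2 and Slc43a2 was not tested.

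Falls among amino acid carriers were led by Slc16a10, which carries aromatic amino acids and thyroid hormone. It read -0.48, -0.16 and -0.10 in naive, -3.84, -3.57 and -3.24 in Th1 and -3.28, -2.97 and -2.72 in Th17 cells. The naive arrays lay above all others, by 3.30 ± 0.20 (9.86-fold, adjusted p = 5.74e-06) against Th1 and 2.74 ± 0.20 (6.69-fold, adjusted p = 1.45e-05) against Th17 cells. Slc66a1, the lysosomal exporter of lysine and arginine, fell by 1.56 and 1.52. Slc32a1, a vesicular carrier of inhibitory neurotransmitters, fell by 2.30 and 3.07 by the probe used, but a second probe, above background on 9 arrays, gave -0.00 and -0.05 (adjusted p = 0.991 and 0.774).

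**Figure D3:**
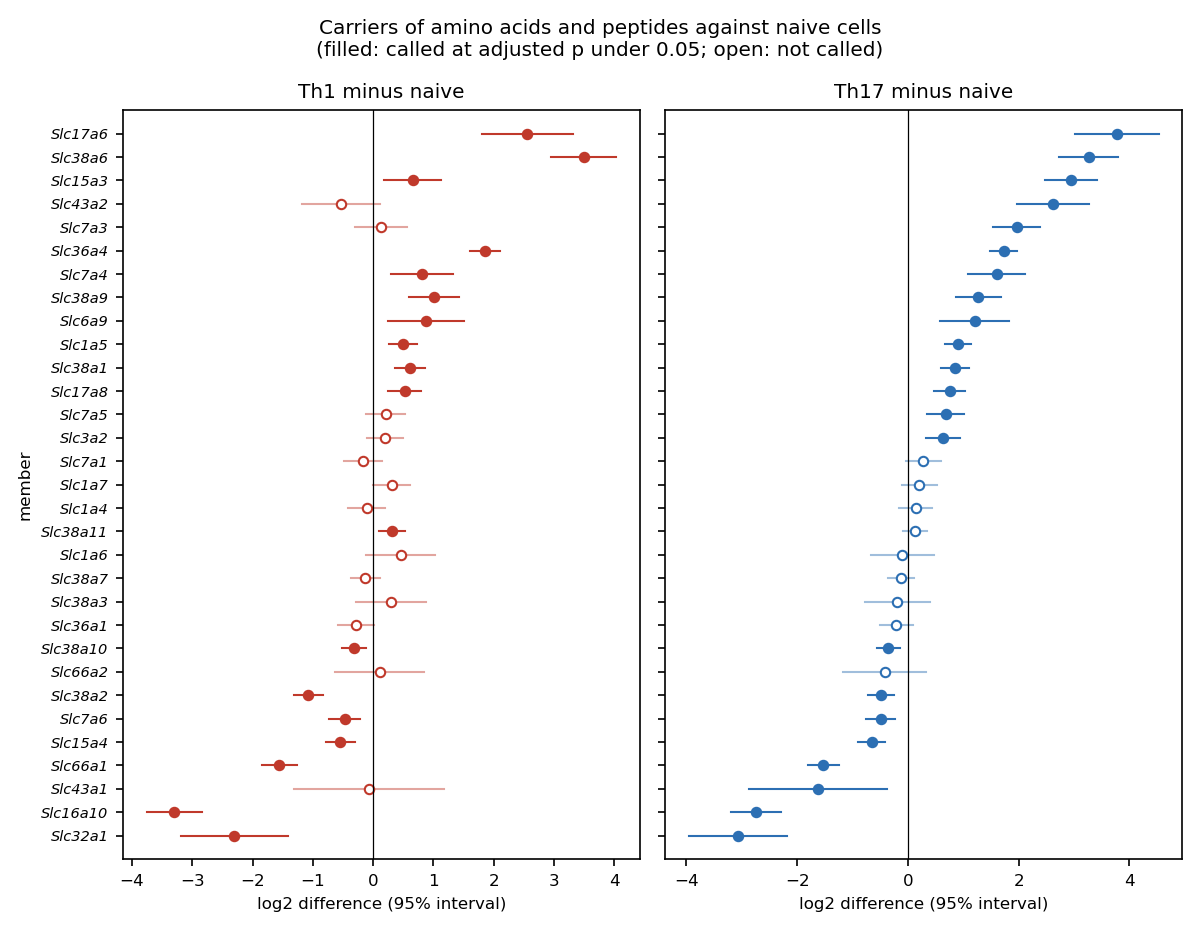
Log2 difference from naive cells with its 95% interval for the 31 amino acid and peptide carriers in Th1 (left) and Th17 cells (right), ordered by the Th17 difference; filled points were called. Slc38a6 and Slc36a4 lie far to the right in both panels, Slc43a2 and Slc7a3 only in the right one, and Slc16a10 and Slc32a1 far to the left in both.

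The enzymes that use amino acids were given by a list of 20 measured genes. In Th1 cells 7 rose and 4 fell, and in Th17 cells 10 rose and 2 fell. Th17 against Th1 cells gave 9 higher and 1 lower. Of all genes tested 53.9%, 54.2% and 15.8% were called in these comparisons. Asns, asparagine synthetase, rose by 3.05 in Th1 and 4.22 in Th17 cells, and was 1.17 ± 0.14 higher in Th17 (adjusted p = 0.00115). Gls2, a glutaminase, rose by 2.84 and 3.02, and Aldh18a1, the first enzyme of proline synthesis, by 1.06 and 1.80. Psph and Shmt2, of serine and glycine synthesis, were 1.06 and 0.82 higher in Th17 than in Th1 cells, and their differences of 0.07 and 0.07 in Th1 against naive cells were not called.

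Mitochondrial carriers of the Slc25 family were the largest class, with 38 measured of 47 on the array. In Th1 against naive cells 7 rose and 18 fell, with a median difference of -0.34, and in Th17 cells 8 rose and 16 fell, with a median of -0.24, where the median over all genes was -0.09 in both. Scaled to probes above background on all arrays, the medians over all genes were 0.06 and -0.00, so small falls shift with the scaling. Between Th17 and Th1 cells 3 were higher and 2 lower. The shares called were 65.8%, 63.2% and 13.2%, beside 53.9%, 54.2% and 15.8% of all genes.

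Those that fell include carriers for citrate, adenine nucleotides, phosphate and iron. Slc25a1 exports citrate to the cytosol for fatty acid and acetyl-CoA supply. It read 2.19, 2.06 and 2.01 in naive, 0.66, 0.46 and 0.74 in Th1 and 0.85, 0.58 and 0.42 in Th17 cells. The naive arrays lay above the others by 1.47 ± 0.14 in both comparisons (adjusted p = 5.52e-05 and 4.9e-05), and within slide 1 the Th1 difference was -1.43 (adjusted p = 0.00651). Slc25a25, an ATP-magnesium carrier, fell by 1.32 and 1.24, and Slc25a36, a pyrimidine nucleotide carrier, by 1.0 and 1.5. Slc25a10, a dicarboxylate carrier, was above background on naive arrays alone, at -3.56, -3.44 and -3.40. Naive cells were at least 3.08-fold above the Th1 and 3.89-fold above the Th17 bound (measured means -3.47, -5.63 and -5.87, adjusted p = 8.21e-05 and 4.3e-05). This gene passed the filter through the naive arrays alone, so it had to differ to enter, and these p-values lend its difference no support. Slc25a5, an ADP/ATP carrier, fell by 0.55 in Th1 cells (adjusted p = 0.00642), which ended with slide as a block (adjusted p = 0.0908), and was at -0.24 in Th17 cells (adjusted p = 0.147). Among members picked after their values were seen, the phosphate carrier Slc25a3 fell by 0.63 and 0.53, the mitochondrial iron importer Slc25a37 by 0.85 and 0.89, its relative Slc25a28 by 0.49 and 0.80, and the glycine carrier Slc25a38, which serves haem synthesis, by 0.82 and 0.85.

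The mitochondrial carriers that rose were fewer. Slc25a13, the aspartate-glutamate carrier citrin of the malate-aspartate shuttle, was above background on no naive array, and Th1 and Th17 cells were at least 3.30-fold and 2.75-fold above the naive bound (measured means -6.39, -3.43 and -3.69, adjusted p = 0.000627 and 0.000982). It passed the filter through effector arrays alone, so these p-values lend its rises no support. With slide as a block its Th17 rise was not called (2.09, adjusted p = 0.0899). Slc25a24, a second ATP-magnesium carrier, read -4.40, -4.29 and -4.73 in naive, -2.97, -3.50 and -3.35 in Th1 and -1.57, -1.81 and -2.08 in Th17 cells. Its groups were ordered naive, Th1, Th17 without overlap, with steps of 1.20 ± 0.19 and 1.45 ± 0.19 (adjusted p = 0.00102 and 0.00163). Slc25a53, of unknown substrate, was above background on no naive array and at least 1.5-fold and 2.70-fold above the naive bound. It too passed the filter through effector arrays alone. Slc25a42, the mitochondrial importer of coenzyme A, was 0.98 ± 0.17 lower in Th17 than in Th1 cells (adjusted p = 0.0069). Slc25a26, which imports S-adenosylmethionine, was 0.73 ± 0.17 higher (adjusted p = 0.0198), but not on leaving out Th1 1, Th1 2, Th17 2 or Th17 3.

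**Figure D4:**
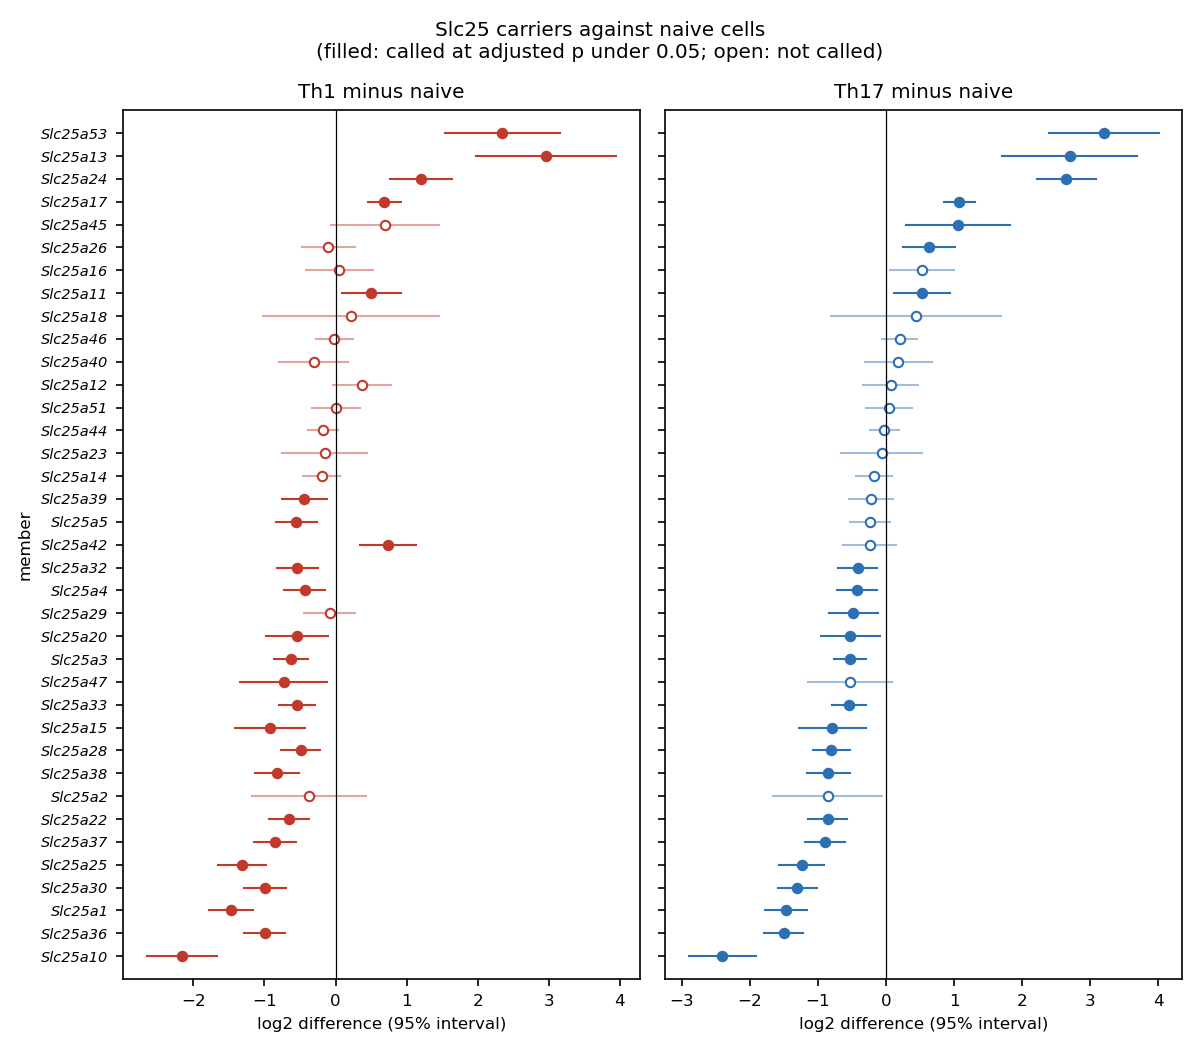
Log2 difference from naive cells with its 95% interval for the mitochondrial carriers reported here, in Th1 (left) and Th17 cells (right), ordered by the Th17 difference; filled points were called. Most filled points lie left of 0 (18 in Th1, 16 in Th17), while Slc25a53, Slc25a13 and Slc25a24 lie far to the right in both panels.

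Metal ion carriers, 24 measured, included 4 that rose and 10 that fell in Th1 cells (58.3% called). In Th17 cells 5 rose and 8 fell (54.2%), and 6 were higher and 2 lower than in Th1 cells (33.3%). Over all genes these shares were 53.9%, 54.2% and 15.8%. Slc39a8, a zinc and manganese importer, is the only member called higher in Th1 and lower in Th17 than in naive cells. It read 0.10, 0.33 and 0.66 in naive, 1.20, 1.05 and 1.05 in Th1 and 0.15, -0.63 and -0.49 in Th17 cells. The Th1 arrays lay above all others, and Th17 replicate 1 lay within the naive range. The differences were 0.74 ± 0.22 (adjusted p = 0.0213), -0.69 ± 0.22 (adjusted p = 0.0279) and, between Th17 and Th1, -1.42 ± 0.22 (adjusted p = 0.00374). The first ended on leaving out naive 1, naive 2 or Th1 1 (adjusted p up to 0.0708), the second on leaving out naive 2, naive 3, Th17 2 or Th17 3 (up to 0.0958), and both with slide as a block. The third ended within slide 2 (-1.29, adjusted p = 0.0818) and in no fit without a single array.

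Iron enters through Slc11a2, which read 0.65, 0.72 and 0.62 in naive, -0.42, -0.56 and -0.44 in Th1 and 0.27, 0.26 and 0.62 in Th17 cells. It fell by 1.14 ± 0.12 in Th1 cells (adjusted p = 9.88e-05) and was 0.86 ± 0.12 higher in Th17 than in Th1 cells (adjusted p = 0.00195). Slc40a1, the iron exporter, was above background on no array. Among zinc carriers, Slc30a4 fell by 1.77 ± 0.12 and 1.25 ± 0.12 and Slc30a2 by 0.81 and 1.59, while Slc30a6 of the Golgi rose by 0.54 and 1.24. Slc39a11, a zinc importer of the Golgi and nucleus, read -1.38, -1.15 and -1.36 in naive, 0.64, 0.20 and 0.05 in Th1 and 0.85, 0.58 and 0.88 in Th17 cells. It rose by 1.59 ± 0.17 and 2.07 ± 0.17 with no naive array near the others. Slc30a1, the zinc-induced exporter, read -0.16 to 0.40 and was not called in any comparison. Of the copper carriers, Slc31a2 fell by 1.36 and 0.83 by the probe used, but by a second probe the differences were -0.49 and 0.26 (adjusted p = 0.161 and 0.448). Slc41a3, a magnesium carrier, was above background on no Th1 array, and Th17 cells were at least 1.77-fold above the Th1 bound (measured means -4.27 and -6.21, adjusted p = 0.000409). A list of 11 measured metal-handling genes gave 2 higher and 5 lower in Th1, and 1 higher and 4 lower in Th17 cells. Of all genes 53.9% and 54.2% were called in these comparisons. The transferrin receptor Tfrc fell by 0.84 and 0.53, and the copper pump Atp7a by 1.28 in Th1 cells, with 1.06 ± 0.10 more in Th17 than in Th1 cells (adjusted p = 0.00022).

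Vitamin, choline, haem and acetyl-CoA carriers, 13 measured, gave 3 higher and 6 lower in Th1 against naive cells (69.2% called). In Th17 cells 4 were higher and 6 lower than in naive (76.9%), and 5 higher and 2 lower than in Th1 cells (53.8%). Over all genes the shares were 53.9%, 54.2% and 15.8%. Of the calls in this class between Th17 and Th1 cells, only that of Slc19a2 held in every alternative except normexp background correction. Both riboflavin carriers that were measured rose. Slc52a3 was below background on all naive arrays and read -2.71, -3.05 and -3.64 in Th1 and -1.90, -1.61 and -2.41 in Th17 cells. These were at least 4.05-fold and 9.05-fold above the naive bound (measured means -5.71, -3.13 and -1.97, adjusted p = 0.000103 and 1.36e-05). Slc52a3 passed the filter through effector arrays alone, so these p-values lend its rises no support. Slc52a2 rose by 0.85 ± 0.10 and 1.23 ± 0.10. Slc33a1, which carries acetyl-CoA into the endoplasmic reticulum, rose by 1.30 ± 0.09 and 1.81 ± 0.09 and was 0.51 higher in Th17 than in Th1 cells (adjusted p = 0.00772, but called no longer within slide 2). Slc44a2, a choline carrier, read 2.64, 2.82 and 2.5 in naive, 0.97, 0.62 and 0.98 in Th1 and 0.46, 0.35 and 0.02 in Th17 cells. It fell by 1.80 ± 0.16 (adjusted p = 4.3e-05) and 2.38 ± 0.16 (adjusted p = 9.4e-06), with the naive arrays apart from all others. Thiamine carrier Slc19a2 fell by 1.26 and 0.61, the second not called with slide as a block (adjusted p = 0.198), and ascorbate carrier Slc23a2 by 0.48 and 1.08. The folate carrier Slc19a1 gave opposite calls by its 2 probes in Th17 against naive cells, 0.32 (adjusted p = 0.0207) and -0.62 (adjusted p = 0.00982), so no direction is given. Between Th17 and Th1 cells the probe used gave 0.46 (adjusted p = 0.0143) and the other 0.25 (adjusted p = 0.327).

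Phosphate, sulfate and sugar phosphate carriers, 8 measured, included Slc37a2, a sugar phosphate exchanger of the endoplasmic reticulum. It read -2.51, -2.48 and -2.09 in naive, -0.43, 0.34 and 0.35 in Th1 and 1.70, 1.99 and 2.43 in Th17 cells. Its groups were ordered naive, Th1, Th17 without overlap, with 2.44 ± 0.26 in Th1 (adjusted p = 0.000122) and 4.40 ± 0.26 in Th17 cells (21.1-fold, adjusted p = 5.31e-06). Th17 cells were 1.95 ± 0.26 above Th1 cells (adjusted p = 0.00179). A dimmer probe, above background on 8 arrays, gave 2.32, 1.65 and -0.67 for these comparisons, none of them called (adjusted p between 0.333 and 0.844), and the mean of both probes ended the Th1 rise and the difference between Th17 and Th1 (adjusted p = 0.0707 and 0.699). Slc37a4, the glucose-6-phosphate carrier, fell by 1.14 and 1.34. Of the phosphate importers Slc20a2 rose by 0.84 and 1.15, and Slc20a1 was not called by the probe used. A second Slc20a1 probe, above background on 9 arrays, gave -0.60 in Th17 against naive cells (adjusted p = 0.0171). The probe used gave -0.29 there (adjusted p = 0.112). Slc17a5, the lysosomal sialic acid exporter, rose by 1.07 and 0.78 by the probe used. A second probe, above background on 9 arrays, gave 0.89 and 1.92, and 1.03 between Th17 and Th1 cells (adjusted p = 0.00152), where the probe used gave -0.29 (adjusted p = 0.34).

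Nucleotide sugar carriers bring donors for glycosylation into the Golgi apparatus and endoplasmic reticulum. Of 10 measured, 4 rose and 2 fell in Th1, and 4 rose and 1 fell in Th17 cells. These are 60% and 50% of the class, beside 53.9% and 54.2% of all genes. The CMP-sialic acid carrier Slc35a1 rose by 0.92 and 1.03, and the N-acetylglucosamine donor carrier Slc35a3 by 1.17 and 1.53. The UDP-galactose carrier Slc35a2 rose by 0.72 and 1.01 by the probe used, and by a second probe gave 0.26 and 0.09 (adjusted p = 0.182 and 0.637). Slc35b1, the ATP carrier of the endoplasmic reticulum, read 2.93, 2.59 and 2.79 in naive, 2.77, 2.6 and 2.6 in Th1 and 3.55, 3.76 and 3.89 in Th17 cells. Th17 arrays lay above all others, by 0.96 ± 0.13 against naive (adjusted p = 0.000393) and 1.08 ± 0.13 against Th1 cells (adjusted p = 0.00103), and naive and Th1 arrays overlapped.

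Nucleoside and nucleobase carriers, 7 measured, gave 3 higher and 1 lower in Th1, and 3 higher and 2 lower in Th17 cells. Called were 57.1% and 71.4%, beside 53.9% and 54.2% of all genes. Slc29a3, the lysosomal nucleoside exporter, read -3.04, -2.99 and -2.89 in naive, -0.90, -0.99 and -0.76 in Th1 and -1.39, -0.81 and -1.12 in Th17 cells. It rose by 2.09 ± 0.15 (adjusted p = 1.5e-05) and 1.86 ± 0.15 (adjusted p = 2.52e-05), well apart from the naive arrays. Plasma membrane carrier Slc29a1 rose by 0.94 and 0.96, the second not called with slide as a block (0.53, adjusted p = 0.176), and its relative Slc29a2 fell by 1.0 and 1.18. The purine base carrier Slc43a3 rose by 1.03 and 1.76.

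Carriers of inorganic ions and protons, 27 measured, gave 9 higher and 10 lower in Th1, and 10 higher and 9 lower in Th17 cells. Called were 70.4% in each, beside 53.9% and 54.2% of all genes. Between Th17 and Th1 cells 14.8% were called, beside 15.8% of all genes. Slc9b2, a sodium-proton exchanger, read -6.05, -6.56 and -5.04 in naive cells, of which 1 array was above background, -1.24, -0.94 and -0.53 in Th1 and -3.03, -2.52 and -1.56 in Th17 cells. All groups were apart, with rises of 4.98 ± 0.46 (adjusted p = 5.61e-05) and 3.52 ± 0.46 (adjusted p = 0.00034), and -1.46 between Th17 and Th1 cells was not called (adjusted p = 0.0671). The Golgi exchanger Slc9a7 rose by 2.22 ± 0.19 and 1.81 ± 0.19.

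Of the chloride and bicarbonate carriers, 6 members of the Slc12 and 7 of the Slc4a family were measured. Between Th17 and Th1 cells 1 Slc12 member was lower and 1 Slc4a member higher in Th17 cells. Against naive cells 4 of the 6 Slc12 members fell in Th1 and 4 in Th17 cells. Slc12a2, the sodium-potassium-chloride importer, read 0.41, 0.90 and 0.57 in naive, 1.42, 1.49 and 1.48 in Th1 and 0.19, 0.43 and 0.92 in Th17 cells. The Th1 arrays lay above all others, by 0.84 ± 0.20 against naive (adjusted p = 0.00716, but 0.0648 within slide 1) and 0.95 ± 0.20 against Th17 cells (adjusted p = 0.0137). Slc12a7, a potassium-chloride exporter, fell by 1.45 and 1.26. Slc4a2, an anion exchanger, read 0.90, 0.99 and 1.02 in naive, 0.63, 0.68 and 0.75 in Th1 and 1.38, 1.48 and 1.59 in Th17 cells. No groups overlapped, and Th17 cells were 0.80 ± 0.09 above Th1 (adjusted p = 0.000928) and 0.52 ± 0.09 above naive cells (adjusted p = 0.00197, and 0.131 with slide as a block). In Th1 cells it fell by 0.28 (adjusted p = 0.0335), which ended with slide as a block and on leaving out naive 2, naive 3, Th1 1, Th1 2 or Th17 2. Slc4a1, the anion exchanger of red blood cells, read -4.13, -4.12 and -4.52 in naive, -3.68, -2.11 and -4.85 in Th1 and -3.59, -2.80 and -3.36 in Th17 cells and was not called. The haemoglobin gene Hba-a1 read -4.26, -3.37 and -4.81 in naive, -0.56, 0.35 and -4.86 in Th1 and -0.22, 1.45 and -0.21 in Th17 cells. Th1 replicate 3 was thus the lowest effector array for both genes. Of 9 erythroid and platelet markers 6 were measured, with a summed level of 0.51 to 0.68 in naive, 1.08 to 2.27 in Th1 and 1.77 to 2.88 in Th17 cells. Against naive cells 1 of the 6 rose in Th1 and 4 rose in Th17 cells, beside 23.5% and 24.4% of all genes, and 0 fell in either. The part of red cell RNA in the level of Slc4a1 was not tested.

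Carriers of organic ions, amines and osmolytes, 18 measured, gave 2 higher and 4 lower in Th1, and 4 and 4 in Th17 cells. These are 33.3% and 44.4% of the class, beside 53.9% and 54.2% of all genes. Slc22a15, known to carry zwitterions such as ergothioneine and carnitine, read -3.63, -2.73 and -3.26 in naive, 0.02, 0.11 and -0.14 in Th1 and -1.07, -1.12 and -1.20 in Th17 cells. Each group lay apart, with rises of 3.20 ± 0.21 (9.19-fold, adjusted p = 7.98e-06) and 2.08 ± 0.21 (adjusted p = 7.3e-05). Th17 cells were 1.12 ± 0.21 below Th1 cells (adjusted p = 0.00806, and 0.0622 with slide as a block). A second Slc22a15 probe, above background on 9 arrays, gave smaller rises of 1.98 and 1.02, and -0.96 between Th17 and Th1 cells, all called. Slc22a4, the ergothioneine carrier, was above background in Th17 cells alone, at -5.19, -4.35 and -2.61, at least 2.14-fold above the naive and 2.06-fold above the Th1 bound (measured means -4.05, -6.64 and -7.32, adjusted p = 0.0105 and 0.0126). Slc22a4 passed the filter through the Th17 arrays alone, so it had to differ to enter, and these p-values lend its difference no support. With slide as a block its difference from naive cells was not called (2.15, adjusted p = 0.135). Slc18a2, the vesicular monoamine carrier, rose by 1.30 and 1.25. Slc17a9, which loads vesicles with ATP, fell by 0.82 and 0.85, and the taurine carrier Slc6a6 by 0.73 and 0.53. The Th17 fall of Slc6a6 ended with slide as a block and on leaving out naive 1, naive 2, Th17 1 or Th17 2 (adjusted p up to 0.203), and that of Slc17a9 with slide as a block (adjusted p = 0.0562). Slc22a5, a carnitine carrier, was not called.

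Of 7 measured lipid and bile acid carriers 0 rose and 2 fell in Th1 cells, and 1 rose and 4 fell in Th17 cells. Called were 28.6% and 71.4%, beside 53.9% and 54.2% of all genes. At an unadjusted p under 0.05 limma also gave 0 rises in Th1 cells. Slc27a1, a fatty acid carrier with acyl-CoA synthetase activity, fell by 0.62 and 1.0. The remaining 11 members matched no symbol pattern of a substrate class, even where their family has one, as for Slc28a2b and Slc5a4a. They are left out of the counts of the classes above and include the 5 that are not carriers. In that group the scaffold Slc9a3r1 fell by 0.88 and 1.41, the urea carrier Slc14a1 rose by 1.56 in Th1 cells, and Slc5a4a, of the sodium-glucose carrier family, rose by 1.79 and 1.38.

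Transporters whose symbols fall outside the rule were given by a list of 34 measured of 44. In Th1 cells 8 rose and 7 fell, and in Th17 cells 14 rose and 8 fell. Th17 against Th1 cells gave 5 higher and 2 lower. Of all genes tested 53.9%, 54.2% and 15.8% were called in these comparisons. Slco3a1, an organic anion carrier, rose by 2.99 ± 0.15 and 3.97 ± 0.15 and was 0.99 higher in Th17 cells (adjusted p = 0.00385). Slco4a1, which carries thyroid hormone, rose by 2.88 and 2.87, and the nucleotide sugar carrier Slc35d2 by 2.37 and 2.15. Sfxn2, a mitochondrial carrier of the sideroflexin family, fell by 1.49 and 1.43.

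Between Th17 and Th1 cells the 42 members called are shown array by array in the heat map, apart from 1 that is not reported here. Of these calls, 15 held in every alternative except normexp background correction. They were Slc13a3, Slc12a2 and Slc25a42, lower in Th17 cells, and Slc2a6, Slc43a2, Slc15a3, Slc41a3, Slc7a3, Slc25a24, Slc16a3, Slc35b1, Slc16a6, Slc11a2, Slc4a2 and Slc19a2, higher in Th17 cells. Another 19 of the 42 calls ended in at least 1 fit that left out a single array.

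**Figure D5:**
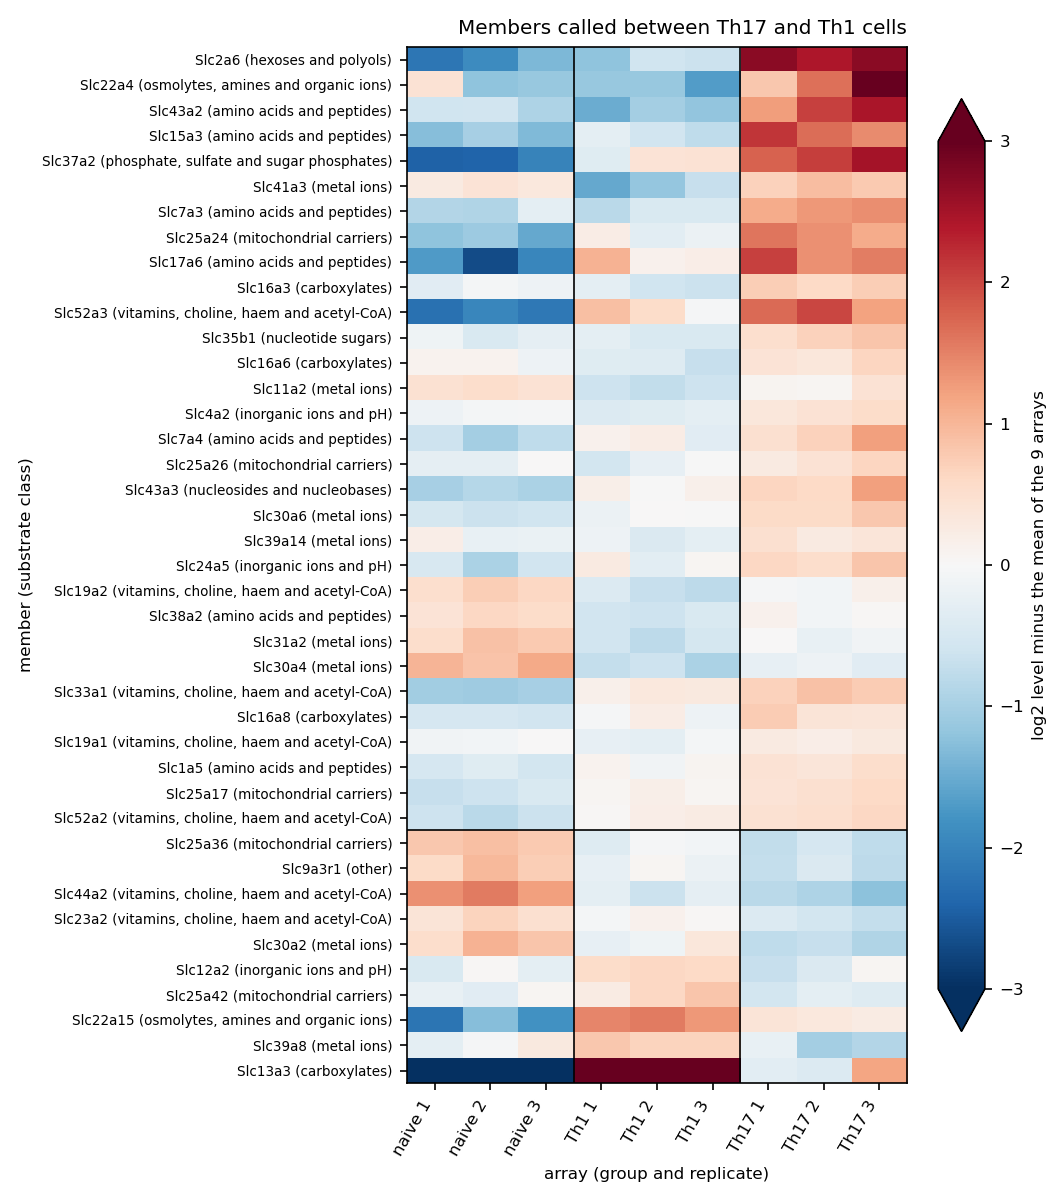
Heat map of members called between Th17 and Th1 cells; colour is the log2 level on an array minus the mean of the 9 arrays (red above, blue below, cut at -3 and 3). Rows run from the largest rise to the largest fall in Th17 against Th1 cells, with a line between the higher and the lower members; Slc2a6, Slc43a2 and Slc15a3 are red on the 3 Th17 arrays alone, and Slc13a3 is deepest red on the 3 Th1 arrays.

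At the threshold of 3 arrays lay 7 members: Slc13a2, Slc22a4, Slc25a10, Slc25a18, Slc27a3, Slc45a1 and Slc6a11. Just outside, with 2 arrays, lay 8 symbols, among them Slc17a4, Slc23a3, Slc24a4, Slc25a31, Slc2a9, Slc36a3 and Slc7a10. Slc22a4 and Slc25a10 were above background in a single population, so each had to differ between populations to enter. Slc13a3, Slc25a13, Slc25a53 and Slc52a3 were above background on no naive array, and Slc16a5 and Slc41a3 on no Th1 array. The filter thus favoured their differences from those arrays, and the p-values of these differences lend them no support. The counts of calls include all of these members. Among the 140 that did not pass were Slc27a2, a fatty acid carrier, the glucose carrier Slc2a4 and the glutamate carriers Slc1a1, Slc1a2 and Slc1a3. Of 50 members with 2 or more kept probes, another probe gave another call in 16 for Th1 against naive, 15 for Th17 against naive and 9 for Th17 against Th1. It gave the opposite call in 1, 3 and 0, among them Slc16a13 and Slc19a1 for Th17 against naive.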

How the data were processed

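Each of 9 one-colour Agilent arrays gave 1 deposited scanner file of intensity values, made with Agilent Feature Extraction 10.7.3.1 per the file headers (10.5 per the submitters' processing notes). The processed signal, a background-corrected intensity deposited by the authors, was divided by each array's 75th percentile and put on the log2 scale, after removal of 1377 control spots of 44397 and of outlier spots. The authors' deposited series matrix holds log2 values that differ from these by a constant per probe and a constant per array and served as an alternative. No spot was saturated, and the number of arrays limits the precision.

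Spots of 1 probe were averaged. Probes above background on at least 3 arrays were kept (23215 of 39429), and the brightest kept probe stood for a gene, so 19071 genes were tested, 13080 of them with a symbol from RefSeq accessions. All 3 groups entered 1 fit in limma 3.58.1 (lmFit, eBayes; R 4.3.3) without covariates, with Benjamini-Hochberg adjustment. The fit was tested on simulated data. Tables and figures used Python 3.11.15, pandas 2.3.3 and matplotlib 3.10.9.

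A fold of at least N sets a group above background against the higher of the dim probe's signal and the lowest signal above background on the same arrays. Members and gene lists were chosen with earlier results of these data known. Genes named were the 10 largest rises and falls in each comparison among called members with separate groups, up to 4 called members of each class and list by p, a fixed list of well-known carriers, and members whose probes disagreed. Other names complete a count or are said to be chosen after their values were seen.

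Alternatives were normexp background correction (on the median signal, since no mean signal was used here), quantile and other percentile scaling, other filters, the mean of probes, the deposited log2 values, slide as a block, single slides, replicate number as a block and leaving out each array. Same-numbered arrays of different populations deviated with r between -0.01 and 0.18, and differently numbered ones with r between -0.20 and 0.06. These ranges overlap and the labels name no pairing, so the numbers were not taken to pair samples. A pairing by number is not excluded. Promoters use build GRCm38.p6, and no coordinates of the array's design were used. Some members are not reported here by name and are counted only.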

Additional observations from a re-analysis of the deposited data

Results flagged for a closer look

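Slc16a6, Slc39a8 and Slc4a2 were called in opposite directions in Th1 and in Th17 cells against naive cells, and the difference between Th17 and Th1 cells, which tests this directly, was called for each. It was 0.94 for Slc16a6 (adjusted p = 0.00334, limma), -1.42 for Slc39a8 (adjusted p = 0.00374) and 0.80 for Slc4a2 (adjusted p = 0.000928), with the 3 Th17 arrays apart from the 3 Th1 arrays in all 3 genes. With slide as a block the changes of these genes against naive cells were not called. Within slide 2 the difference of Slc39a8 was -1.29 (adjusted p = 0.0818).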

How the results depend on the processing

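Planned normexp correction called 15 members in Th1 against naive cells (9 higher, 6 lower), 18 in Th17 against naive (11 and 7) and 3 in Th17 against Th1 (2 and 1). On Th1 replicate 2 it fitted a background mean of -2093, against -40.0 to -5.25 on the other arrays, with 5 spots far below their local background. Without such spots, an alternative chosen after seeing the data, it called 115 (45 and 70), 122 (58 and 64) and 37 (28 and 9). Planned normexp reversed, in Th1 against naive, Slc10a7 (0.24), Slc1a5 (-0.15), Slc22a13b (0.38), Slc25a10 (0.28), Slc26a11 (0.0108), Slc30a2 (0.31), Slc35b4 (0.0615), Slc38a1 (-0.0535), Slc41a3 (0.61) and Slc6a20a (0.0355). In Th17 against naive it reversed Slc27a3 (0.0621). In Th17 against Th1 it reversed Slc16a8 (-0.26), Slc22a4 (-0.22), Slc24a5 (-0.40), Slc31a2 (-0.37), Slc41a3 (-0.36) and Slc43a3 (-0.14). The mean of the kept probes reversed Slc19a1 in Th17 against naive (-0.15) and Slc17a5 in Th17 against Th1 (0.37), where the probes differ. Slide as a block called 78 in Th17 against naive (43 and 35), and within slide 2, with fewer arrays, Th17 against Th1 gave 22 (17 and 5). Without a filter on dim probes, which tests more genes, 19 members were higher in Th17 than in Th1 cells.

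Without 1 array, 49 to 56 members were higher and 57 to 73 lower in Th1 against naive, and 116 to 138 were called in Th17 against naive (59 to 68, 56 to 70) and 26 to 38 in Th17 against Th1 (19 to 28, 7 to 11). Called without any single array were 98 of 126, 108 of 134 and 23 of 42. Replicate number as a block called 125 (57 and 68), 132 (66 and 66) and 43 (29 and 14). In the other alternatives, counts of calls stayed within 1.5 times the values reported. Dim probes have only bounds where a group lay below background.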

Other observations

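Slc10a1, the bile acid importer of liver, read 9.20 to 9.54 over the 9 arrays by the probe used and was not called in any comparison.

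Slc22a17 read -2.89, -2.02 and -3.43 in naive, -1.56, -0.01 and -3.24 in Th1 and -1.10, 1.61 and -3.43 in Th17 cells, so that replicate 2 was highest and replicate 3 lowest in each population. Slc49a4 read 0.81 on Th17 replicate 3 and -1.09 and -1.08 on the other Th17 arrays. Slc16a7 read -1.93 there against -4.77 and -5.03, and Slc22a6 0.57 against -2.70 and -2.77. That array lay alone on slide 3. These members were chosen after their values were seen.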
